A study of Mus musculus with 3 samples.

Results

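The genes of the cytosolic ribosomal proteins were followed in gastrocnemius muscle of male C57BL/6J mice on 3 diets. Members were all genes whose annotated symbol has the form Rpl or Rps plus a number, with an optional a, l or x, together with Rplp0, Rplp2 and Rpsa, on probe sets that carry this 1 symbol alone. The rule found 46 genes on 100 probe sets, 24 of the large and 22 of the small subunit, among 18193 genes and 45101 probe sets on the array. Values are those of the probe set with the highest mean log2 signal for a gene, called its brightest, and its other probe sets served as a check. HF+SFC mice received a diet with 60% of its energy as fat (D12492) and, added to it, the iron salt sodium ferrous citrate (SFC) at 0.023% of its weight. HF mice received that high-fat diet alone, and Control mice a diet with 10% of its energy as fat (D12450B). Feeding began at 6 weeks of age and lasted 15 weeks, while the labels give the age as 21 months, and this difference could not be settled. Each group was measured once, on 1 Affymetrix Mouse Genome 430 array that took the pooled samples of the whole group, so no difference below has a replicate check and no test between the groups was possible.

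The cytosolic ribosome translates nuclear-encoded mRNAs. Its small subunit reads the mRNA and its large subunit joins the amino acids, and each ribosomal protein is needed in about equal amount, so their genes are usually transcribed together and strongly in every tissue. Their mRNAs start with a run of C and T (in RNA, U), the terminal oligopyrimidine (TOP) tract, through which mTORC1, a kinase complex that senses nutrients, controls their translation. Skeletal muscle also uses Rpl3l, a striated-muscle copy that takes the place of Rpl3 in the large subunit.

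The start sites are shown because the run of pyrimidines, which the rule did not use, was more frequent at member promoters than at all promoters, though many members have only a short one. RefSeq (GRCm38.p6) start sites were matched for 40 of the 46 members, with 48 promoters of 300 bases among them. The following windows run over 30 bases around the annotated start, with 10 bases before it, on the gene's strand, and capitals mark the longest run of C and T inside the window. They are given for members that the results below return to, stalk and kinase-target proteins first and the muscle and stress paralogs last.
Rplp2, chr7:141447641-141447670, plus strand: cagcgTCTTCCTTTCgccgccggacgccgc
Rps6, chr4:86857348-86857377, minus strand: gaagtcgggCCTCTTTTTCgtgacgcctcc
Rps18, chr17:33955646-33955675, minus strand: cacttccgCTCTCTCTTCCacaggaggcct
Rpsa, chr9:120127756-120127785, plus strand: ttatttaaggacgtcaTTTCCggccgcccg
Rps27, chr3:90213629-90213658, minus strand: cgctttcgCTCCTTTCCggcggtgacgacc
Rps27l, upstream start, chr9:66946076-66946105, plus strand: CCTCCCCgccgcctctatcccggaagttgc
Rps27l, downstream start, chr9:66946403-66946432, plus strand: gggCTTCagggtcactaacgggcctcgcag
Rpl3l, upstream start, chr17:24727816-24727845, plus strand: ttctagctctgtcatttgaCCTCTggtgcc
Rpl3l, downstream start, chr17:24732675-24732704, plus strand: caacagctacagtgCCCCaaatgtcctgaa
The longest run in the window was 10 bases in Rplp2 and Rps6, 11 in Rps18 and 9 in Rps27, against 5 in Rpsa, 7 and 4 at the upstream and downstream starts of Rps27l, and 5 and 4 at those of Rpl3l.

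Over all members, a C and T run of at least 5 bases that began within 5 bases of the start was found at 33.3% of the 48 promoters, against 20.3% of the 32851 promoters in the table. A run of at least 8 bases that lay in, or reached into, the stretch between 20 bases before and 50 bases after the start was found at 68.8% of member promoters and 27.9% of all promoters. For runs of at least 10 bases the shares were 54.2% and 13.7%. The 7 letters CCGGAAG, the core bound by ETS-family factors, occurred on either strand in 41.7% of member promoters and 8.86% of all promoters. In the windows above it can be read at the upstream start of Rps27l, and not at its downstream start. The wider window and this motif were chosen after the sequences were seen, a match describes letters and not a bound site, and some members have several annotated starts.

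On these arrays the signals of the members fell into a bright and a dim class. For 35 members it was above the 95th percentile of all probe sets, with signals of 12540 to 51070 in HF+SFC, 12504 to 49016 in HF and 12450 to 48255 in Control. The other 11 members were dim: Rpl37, Rps6 and Rpl27a lay between the 75th and 95th percentiles, Rpl12, Rpl14, Rpl39, Rps25, Rps27 and Rps4l between the 50th and 75th, and Rpl39l and Rps16 below. For 9 of these 11, a probe set above the 95th percentile also carries the symbol, but beside another symbol, such as that of a pseudogene or a predicted gene. For these 9, the dim signal therefore describes a probe set and not the gene's level. Rpl39l and Rps4l have no such bright probe set, and whether their dim signals reflect the gene's level was not tested. A further 28 ribosomal protein symbols, among them Rpl3, Rpl5, Rpl10 and Rplp1, stand only beside other symbols and are not analysed here one by one. Pseudogenes of the same name are annotated for 33 members (119 in RefSeq), and 15 of the 46 brightest probe sets are of the _x_at type, which can bind related transcripts.

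**Figure D1:**
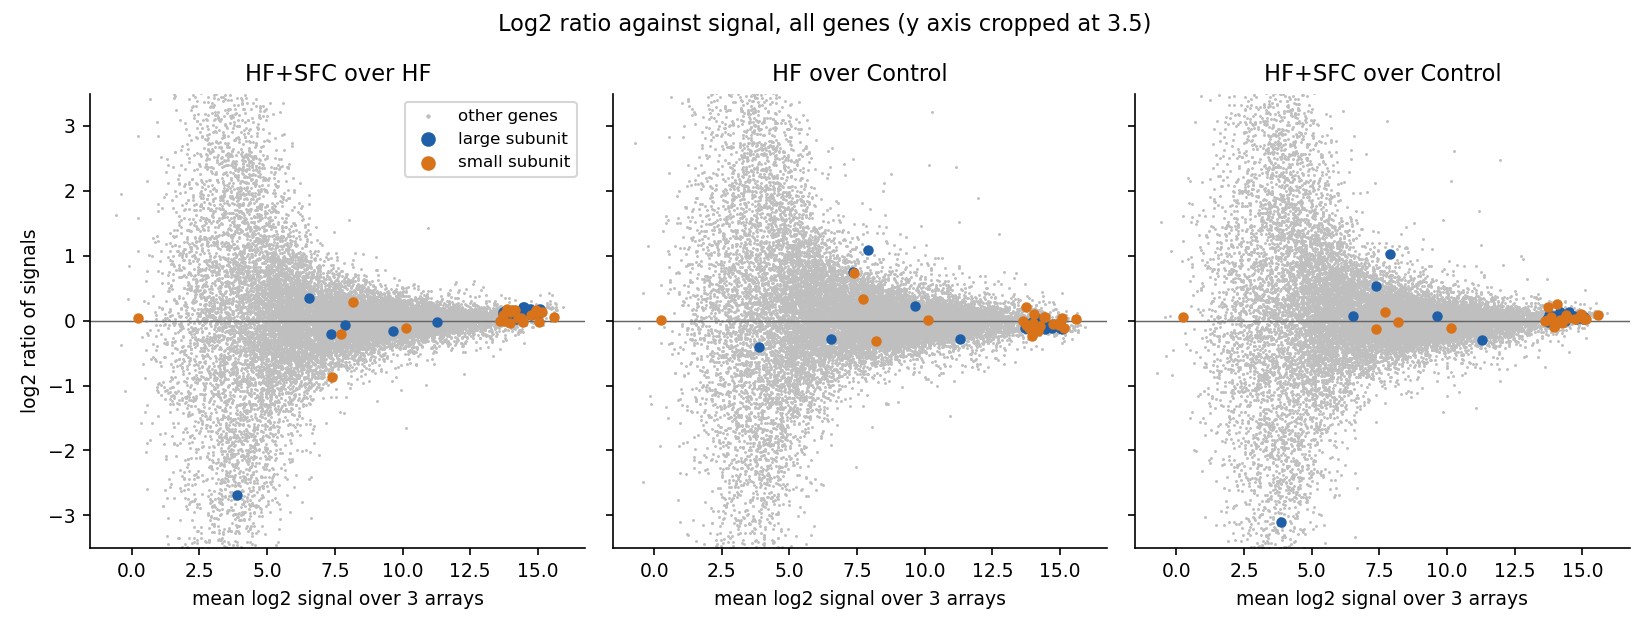
Each grey point is 1 of the other genes and each coloured point 1 ribosomal protein gene of the large or small subunit. The x axis is the mean log2 signal over the 3 arrays and the y axis the log2 ratio between 2 arrays. The 35 bright members sit in the narrow right end of the cloud, and the 11 dim ones lie left of them, most where ratios of all genes scatter more.

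Bright ribosomal protein genes had slightly higher signals in HF+SFC muscle than in HF muscle. Their median log2 ratio was 0.11, which is 1.08-fold, and 30 of 35 (85.7%) showed that direction. After quantile normalization the median was 0.04, with 23 of 35 higher in HF+SFC. Over all genes the median was 0.01 and 51.4% were higher in HF+SFC, while among the 1383 genes above the 95th percentile the median was 0.04 and 64.3% were higher. The share was larger again among brighter genes: of the 359 other genes at or above the lowest mean signal of a bright member (12585), 78.6% were higher, with a median of 0.10. In the values as deposited, the ribosomal proteins thus shifted by about as much as other genes of their brightness. After quantile normalization 53.8% of the 359 others were higher, with a median of 0.01. The bright members differed from each other by less, with an SD across genes of 0.066, against 0.12 for the 359 others. On the brightest probe set none of the 35 reached 1.2-fold in either direction, against 5.64% of genes above the 95th percentile. Of the 359 equally bright others, 95.3% stayed within 1.2-fold. Among all 68 bright probe sets of the members, 1 of Rpl7 was past it, with a log2 ratio of -0.39. Including the dim members, the median was 0.09 and 33 of 46 were higher.

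In HF muscle the bright members were a little lower than in Control. The median log2 ratio was -0.06 (0.96-fold) and 8 of 35 (22.9%) were higher in HF, against 50.7% of all genes, 41.1% of genes above the 95th percentile and 34.5% of the 359 equally bright others, whose median was -0.06 as well. With each array centred on its median, the members' median was -0.15, with 2 of 35 higher in HF. The 359 others moved too, to a median of -0.14 with 18.1% higher. After quantile normalization the members' median was -0.03, with 11 of 35 higher, and that of the 359 others -0.01, with 43.7% higher. No bright member reached 1.2-fold on its brightest probe set, against 10.9% of genes above the 95th percentile. Of the 359 others, 93.0% stayed within 1.2-fold. Among all 68 bright probe sets of the members, 1 of Rpl7 was past it upward (log2 ratio 0.40) and 1 of Rps9 downward (-0.29). Over all 46 members the median was -0.06 and 15 were higher in HF. HF+SFC against Control gave a median of 0.04 for the bright members with 29 of 35 (82.9%) higher in HF+SFC, against 52.4% of all genes, 56.8% of genes above the 95th percentile and 69.9% of the 359 others, whose median was 0.05, and this direction turned to medians of -0.01 after quantile normalization and -0.06 when each array was centred on its median. The 359 others had medians of 0.00 after quantile normalization and -0.05 with that centring. On the brightest probe set none of the 35 reached 1.2-fold for HF+SFC over Control, against 6.94% of genes above the 95th percentile. Of the 359 others, 95.8% stayed within 1.2-fold. The 3 comparisons share arrays: a low HF array moves the first and the second at once. HF was the lowest of the 3 arrays in 25 of the 35 bright members (71.4%), in 48.0% of genes above the 95th percentile and in 34.0% of all genes. The 359 equally bright others were not counted in this way, and most genes above the 95th percentile are dimmer than the bright members.

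**Figure D2:**
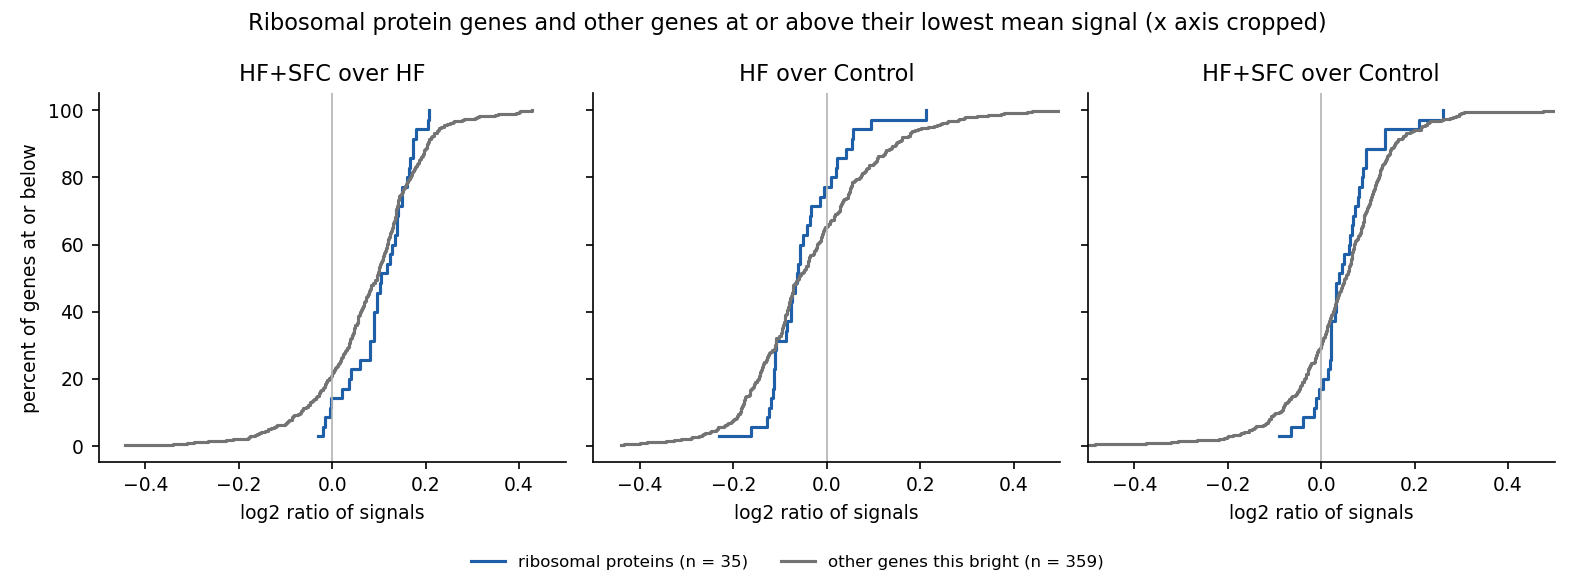
Cumulative percent of genes (y axis) at or below each log2 ratio (x axis) for the 35 bright ribosomal protein genes and the 359 other genes at or above their lowest mean signal. The medians of the ribosomal proteins and the others lie close together, at 0.11 and 0.10, -0.06 and -0.06, and 0.04 and 0.05 in the 3 panels, and the ribosomal protein curve is the steeper one.

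Markers of the cells in the sample moved with the arrays too. The 10 skeletal muscle markers, all above the 95th percentile, had a median log2 ratio of 0.21 for HF+SFC over HF, with 10 of 10 positive, and of -0.13 for HF over Control, with 0 of 10 positive (0.03 and -0.04 after quantile normalization), and summed signals of 519284 in HF+SFC, 441458 in HF and 483986 in Control. The 8 measured adipocyte markers had medians of -0.32 for HF+SFC over HF (3 positive) and 0.60 for HF over Control (7 positive). Their summed signals were 111784 in HF+SFC, 112314 in HF and 102672 in Control. Most of each sum came from Car3, Lpl and Fabp4, with 51978, 30257 and 25306 in HF+SFC. The sums therefore say little about the dimmer markers. Among the adipocyte markers, Lep, the hormone leptin, had the highest ratio of HF over Control, with signals of 387 in HF+SFC, 592 in HF and 45.8 in Control, and Lpl, lipoprotein lipase, which muscle also makes, had the lowest, with 30257 in HF+SFC, 27428 in HF and 31931 in Control. The 9 fibroblast markers had medians of -0.08 and 0.39 (sums 40623 in HF+SFC, 41172 in HF and 32566 in Control), the 9 leukocyte markers -0.01 and 0.31 (sums 3742, 3867 and 3086), the 8 endothelial markers -0.02 and 0.01 (sums 5686, 5707 and 5764) and the 3 measured erythroid markers 0.10 and 0.18 (sums 186, 195 and 188). The ratio of the actin control's probe sets at its ends, a measure of RNA integrity, was 1.15 in HF+SFC, 1.52 in HF and 1.09 in Control, while that of Gapdh was 0.820, 0.832 and 0.842. The part of cell makeup and RNA quality in the ribosomal protein values was not tested, and in whole muscle fewer cells of a type and less RNA per cell cannot be told apart.

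On the brightest probe sets of the bright members, the large-subunit genes were more alike than the small-subunit genes. On the next brightest, the range was wider in the large subunit for HF+SFC over HF only. For HF+SFC over HF all 18 bright large-subunit genes had a positive ratio, with a median of 0.13 and a range of 0.02 to 0.21, against 12 of 17 small-subunit genes with a median of 0.09 and a range of -0.03 to 0.17. Across these bright genes the SD was 0.048 in the large and 0.074 in the small subunit. Over all members it was 0.58 in the large and 0.23 in the small subunit, the reverse order, with the dim probe sets included. Where the next brightest probe set was also bright, its ratios of HF+SFC over HF spread more widely in the large subunit. They ran from -0.23 (Rpl27) to 0.15 (Rpl22), against -0.02 (Rps7) to 0.15 (Rps9) in the small subunit. For HF over Control they ran from -0.16 (Rpl37a) to 0.18 (Rpl27), against -0.29 (Rps9) to 0.16 (Rps27l). For HF+SFC over Control they ran from -0.05 (Rpl27) to 0.13 (Rpl22), against -0.15 (Rps9) to 0.14 (Rps27l). Against Control, 2 of 18 large-subunit genes and 6 of 17 small-subunit genes were higher in HF, with medians of -0.08 and -0.04. For HF+SFC over Control the medians were 0.05 and 0.03, with 16 of 18 and 13 of 17 higher, and both medians turned negative when arrays were centred on their medians, the small-subunit one also after quantile normalization. After quantile normalization the large-subunit medians were 0.05 and -0.05 for the first and the second comparison, and the small-subunit medians -0.01 and 0.00. Over all 46 members the large subunit's median exceeded that of the small subunit by 0.05 for HF+SFC over HF and was 0.06 below it for HF over Control. Neither difference was stable to the choice of probe sets. It was -0.01 for HF+SFC over HF when all probe sets of each gene were averaged and -0.03 with the next brightest probe set, and for HF over Control it was 0.02 with the next brightest probe set and 0.15 without the _s_at, _x_at and _a_at probe sets.

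**Figure D3:**
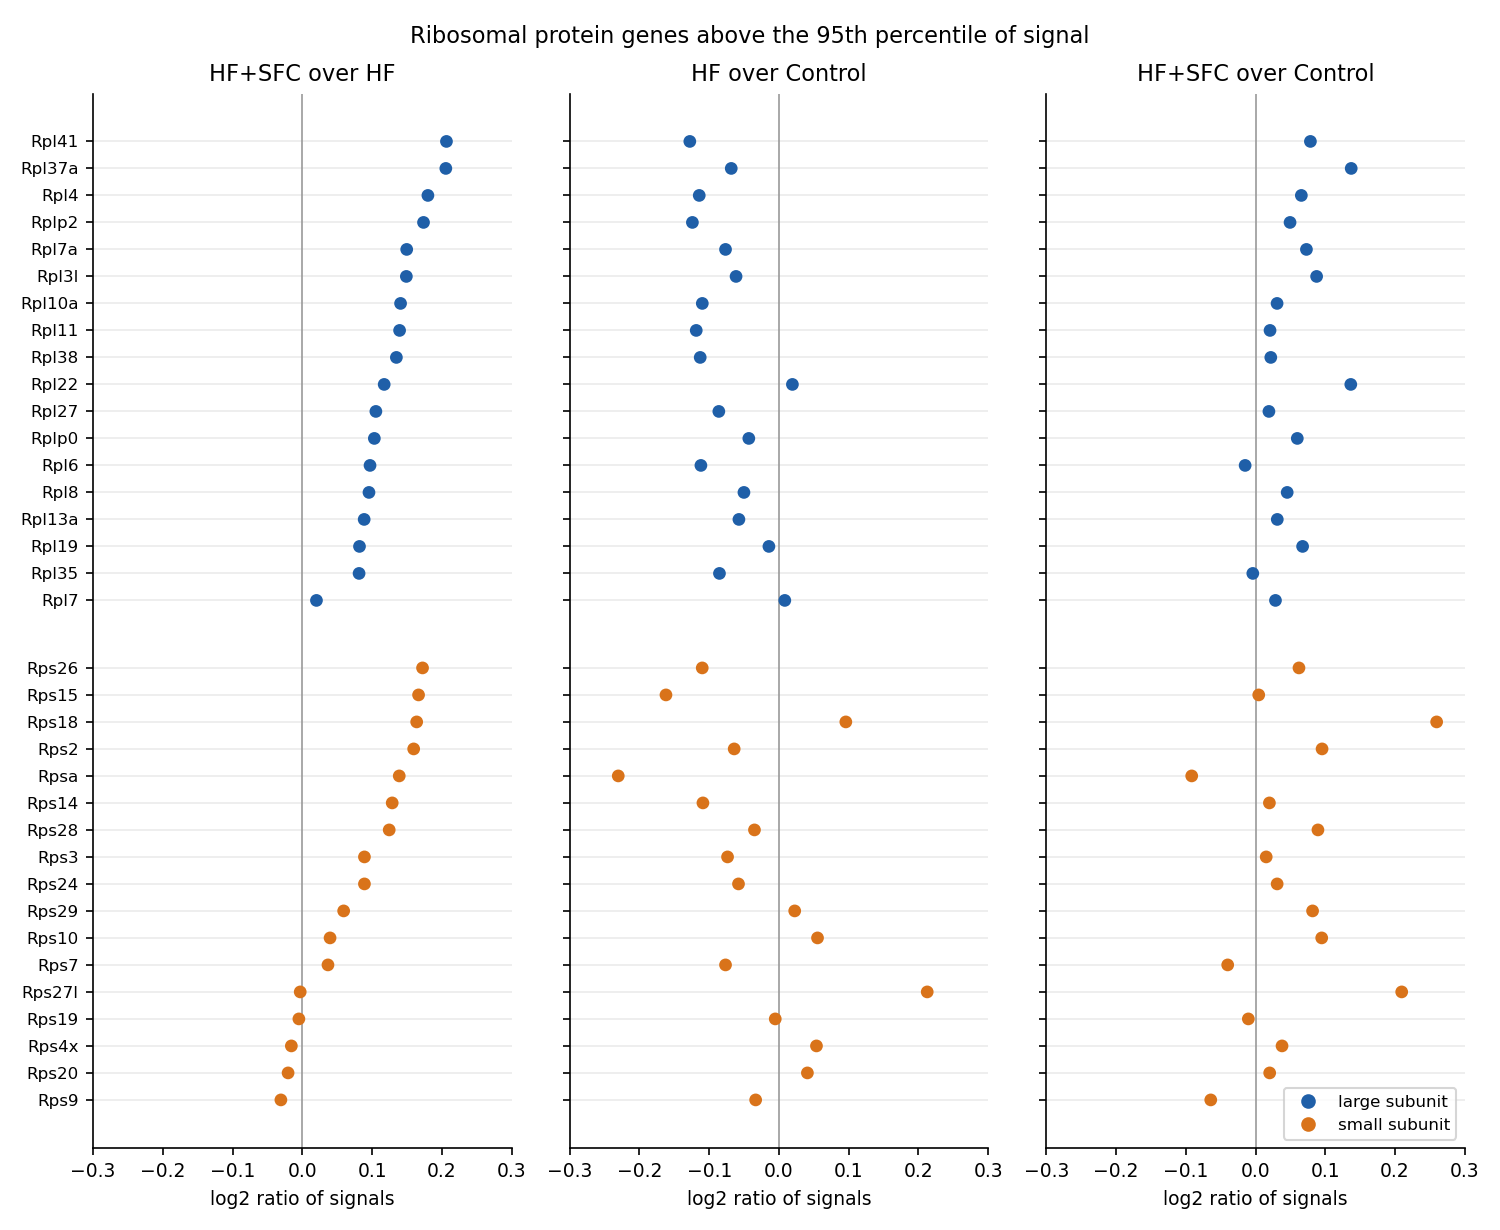
Log2 ratio (x axis) of each bright ribosomal protein gene (rows), large subunit above and small subunit below, in the 3 comparisons. In HF+SFC over HF all 18 large-subunit points lie right of 0, and 5 of 17 small-subunit points lie left of it.

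The stalk of the large subunit, which recruits elongation factors, was measured through 3 of its proteins. Rplp2, a stalk protein, had signals of 36055 in HF+SFC, 31966 in HF and 34838 in Control, so HF was the lowest array (log2 ratios 0.17 for HF+SFC over HF and -0.12 for HF over Control). Rplp0, which anchors the stalk, had 34008 in HF+SFC, 31661 in HF and 32624 in Control, in the same order. Rpl12, at the stalk base, followed that order on a dim probe set, with 102 in HF+SFC, 80.2 in HF and 97.1 in Control.

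Near the catalytic centre HF was again the lowest array. Rpl4, which lines the tunnel that the new protein leaves by, had 28129 in HF+SFC, 24830 in HF and 26877 in Control. Rpl8 and Rpl10a, near the tRNA path, had log2 ratios of 0.10 and 0.14 for HF+SFC over HF and of -0.05 and -0.11 for HF over Control. Rpl11, which sits with the small ribosomal RNA of the large subunit and binds the p53 regulator Mdm2 when free, had 13773 in HF+SFC, 12504 in HF and 13576 in Control. Among the 5 measured proteins at the tunnel exit, Rpl38 had the highest ratio of HF+SFC over HF (34064 in HF+SFC, 31025 in HF and 33551 in Control), and Rpl39 the lowest, on a dim probe set. The order of the arrays differed within that group: Rpl19 and Rpl38 were highest in HF+SFC and lowest in HF, Rpl22 highest in HF+SFC and lowest in Control, Rpl35 highest in Control and lowest in HF, and Rpl39 highest in HF and lowest in Control.

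The top ratios of HF+SFC over HF among bright members belonged to Rpl41 and Rpl37a. Rpl41, a very short and basic large-subunit protein, had 23974 in HF+SFC, 20775 in HF and 22700 in Control, a 1.15-fold excess of HF+SFC over HF. Its next probe set, also bright, gave 13941 in HF+SFC, 13859 in HF and 13492 in Control, a log2 ratio of 0.01, so the value belongs to 1 of its probe sets. Rpl37a, a zinc-binding protein of the large subunit, had 25001 in HF+SFC, 21680 in HF and 22733 in Control, and its next probe set gave 20711, 18736 and 20945 in that order of arrays. Both bright probe sets of Rpl37a thus had positive ratios of HF+SFC over HF, 0.21 and 0.14 on the log2 scale.

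In the small subunit the members were less alike on their brightest probe sets. Rps15, in the decoding region, had 19102 in HF+SFC, 17018 in HF and 19040 in Control, and its next probe set gave 12219, 11262 and 12212, with HF lowest on both. Rps2, at the mRNA entry, had 33554 in HF+SFC, 30040 in HF and 31407 in Control. Rpsa, a protein of the small subunit also known as the laminin receptor precursor, had 16121 in HF+SFC, 14641 in HF and 17176 in Control. Its log2 ratio of HF over Control, -0.23, was the lowest of the 35 bright members and lay at the 5.6th percentile of the 359 equally bright others. Rpsa has no second bright probe set, and its dim one gave 47.4 in HF+SFC, 14.9 in HF and 40.2 in Control. That probe set lies at the 35.5th percentile of signal. In the 5 members with a next probe set not above the 95th percentile, the 2 differed with an SD of 1.98 log2 units for HF over Control. Its order of arrays is therefore no check.

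Rps18, in the head of the small subunit, had the highest bright ratio of HF+SFC over Control, with 18716 in HF+SFC, 16706 in HF and 15632 in Control (log2 ratio 0.26). Its other bright probe sets did not repeat this: one gave 14846 in HF+SFC, 13858 in HF and 15803 in Control (log2 ratio -0.09), the other 14277, 13682 and 13815 (0.05). Rps9, a protein near the mRNA channel, was the lowest bright ratio of HF+SFC over HF, with 15835 in HF+SFC, 16177 in HF and 16556 in Control (-0.03), but its next probe set gave 13266, 11993 and 14709 (0.15). Rps20, Rps19 and Rps4x were the other conventional bright members with a ratio of HF+SFC over HF below 0, at log2 ratios of -0.02, -0.01 and -0.02. The next probe set of Rps20, also bright, gave 30024 in HF+SFC and 29145 in HF (0.04), the other direction. Rps19 and Rps4x have no second bright probe set.

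**Figure D4:**
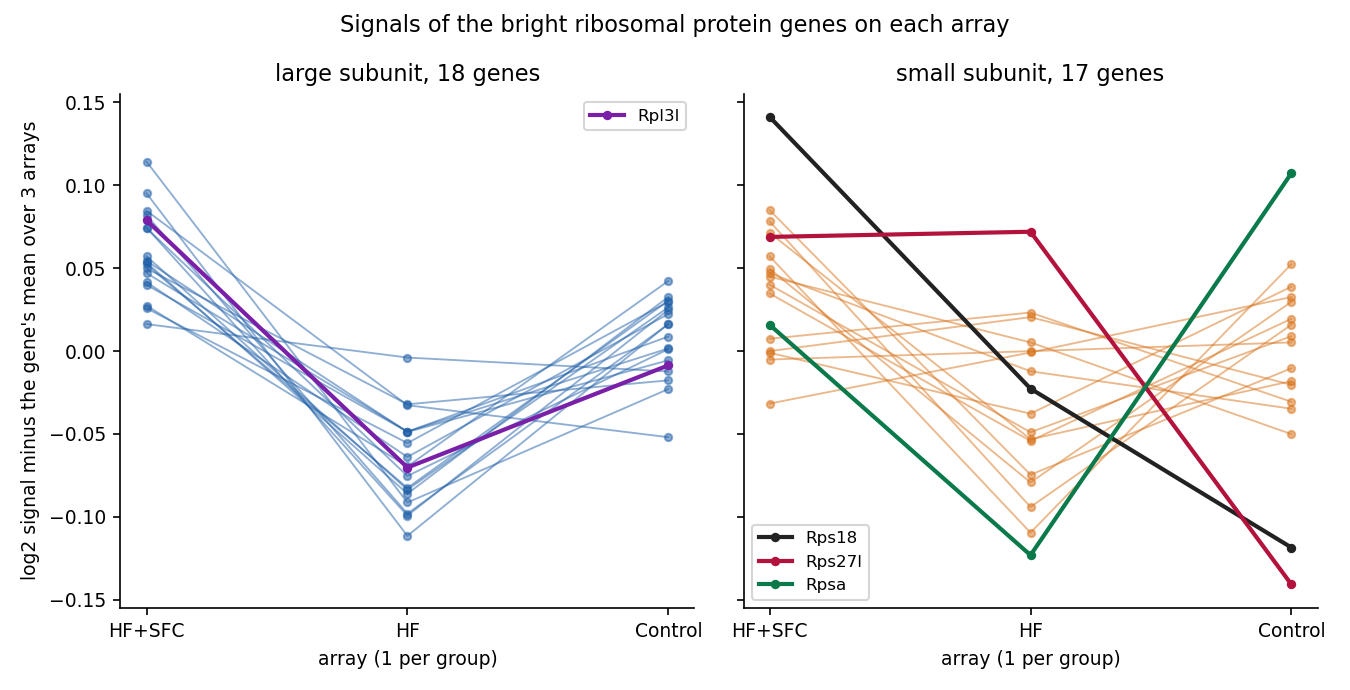
Log2 signal of each bright ribosomal protein gene minus its mean over the 3 arrays (y axis) on the HF+SFC, HF and Control arrays (x axis), in 1 panel per subunit. Most lines dip on the HF array, whereas Rps27l is level between HF+SFC and HF and low in Control, and Rpsa is highest in Control.

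The paralogs did not move as a set. Rpl3l (chr17:24727826-24736143, GRCm38.p6), the muscle copy, had 14793 in HF+SFC, 13340 in HF and 13922 in Control on its 1 probe set. Its log2 ratios were 0.15 for HF+SFC over HF, -0.06 for HF over Control and 0.09 for HF+SFC over Control, the last turning to -0.01 when arrays were centred on their medians. These lie inside the range of the other bright large-subunit genes, with HF again the lowest array, and at the 75.8th, 49.9th and 64.9th percentiles of the 359 equally bright other genes. The switch between Rpl3l and Rpl3 was not measured, since no probe set carries Rpl3 alone.

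Rps27l (chr9:66944624-66949522), a paralog of Rps27 known in human cells as a target of p53, departed from the common order. Its brightest probe set gave 14397 in HF+SFC, 14428 in HF and 12450 in Control. The other probe sets, both bright, gave 11331 in HF+SFC, 11436 in HF and 10259 in Control, and 11229 in HF+SFC, 11288 in HF and 9724 in Control. On each, both high-fat arrays were above Control and level with each other. The log2 ratios of HF over Control were 0.21, 0.16 and 0.22, and those of HF+SFC over HF -0.003, -0.01 and -0.01. Rps27l had the highest ratio of HF over Control among the 35 bright members, at the 94.7th percentile of the 359 equally bright others. It was the only one of the 18 genes with several bright probe sets in which all of them were higher in HF than in Control, whereas in 6 genes all were lower and in 11 they were mixed. Its HF over Control ratio was 0.23 under quantile normalization and 0.13 under median centring. The probe sets of 1 gene can share target sequence, so their likeness is no replicate.

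The partners of these paralogs were seen mostly on dim probe sets. Rps27 had 133 in HF+SFC, 243 in HF and 146 in Control, and was past 1.5-fold in both comparisons with HF. Rps4x, the X-linked form of a small-subunit protein, was bright at 22494 in HF+SFC, 22742 in HF and 21909 in Control. Rps4l, which RefSeq classes as a transcribed pseudogene, had 207 in HF+SFC, 240 in HF and 190 in Control. Rpl39, a short tunnel-exit protein, had 296 in HF+SFC, 309 in HF and 145 in Control, and Rpl39l, its paralog known from testis, 3.84, 24.8 and 33.0. The Rpl39l probe set lies at the 21.7th percentile of signal, so its ratios rest on very low values.

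Past 1.5-fold in either direction stood only dim members. For HF+SFC over HF these were Rpl39l and Rps27, both lower in HF+SFC, 2 of 46, against 27.2% of all genes. For HF over Control they were Rpl39, Rpl14 and Rps27, all higher in HF, 3 of 46, against 29.3% of all genes. For HF+SFC over Control Rpl39 was higher and Rpl39l lower, 2 of 46, against 29.0%. These shares are over genes of any brightness. Of the 6707 genes above the 75th percentile, far fewer were past 1.5-fold. In the order of these comparisons, 20, 102 and 63 were higher and 43, 72 and 70 lower. Rpl14, a large-subunit protein, had 177 in HF+SFC, 204 in HF and 122 in Control. The remaining dim members stayed within that fold. Rps6, the target of the S6 kinases below mTORC1, had 1070 in HF+SFC, 1158 in HF and 1152 in Control. Rps25, needed for initiation at some viral mRNAs, had 310 in HF+SFC, 254 in HF and 314 in Control. Rpl27a had 785 in HF+SFC, 877 in HF and 747 in Control, and Rpl37 2314, 2351 and 2854, both being large-subunit proteins. Rps16 was near 1.2 on each array.

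How far a ratio of this size can be read is shown by the genes with several bright probe sets. In 18 members the next brightest probe set was also above the 95th percentile. It had the same direction as the brightest in 14 of 18 for HF+SFC over HF, 9 of 18 for HF over Control and 12 of 18 for HF+SFC over Control. The SD of the difference between the members of a pair was 0.11, 0.13 and 0.09 log2 units, as large as the shifts themselves. In Rpl27, for example, the brightest probe set gave 19482 in HF+SFC, 18109 in HF and 19224 in Control, and the next gave 9355, 10984 and 9682, so that HF was the lowest array on one and the highest on the other. Over all 68 bright probe sets of the members, 53 had a positive ratio of HF+SFC over HF, 20 of HF over Control and 52 of HF+SFC over Control. The 79 bright probe sets that carry a member-type symbol beside others had medians of 0.10, -0.07 and 0.03, with 70, 21 and 55 higher.

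**Figure D5:**
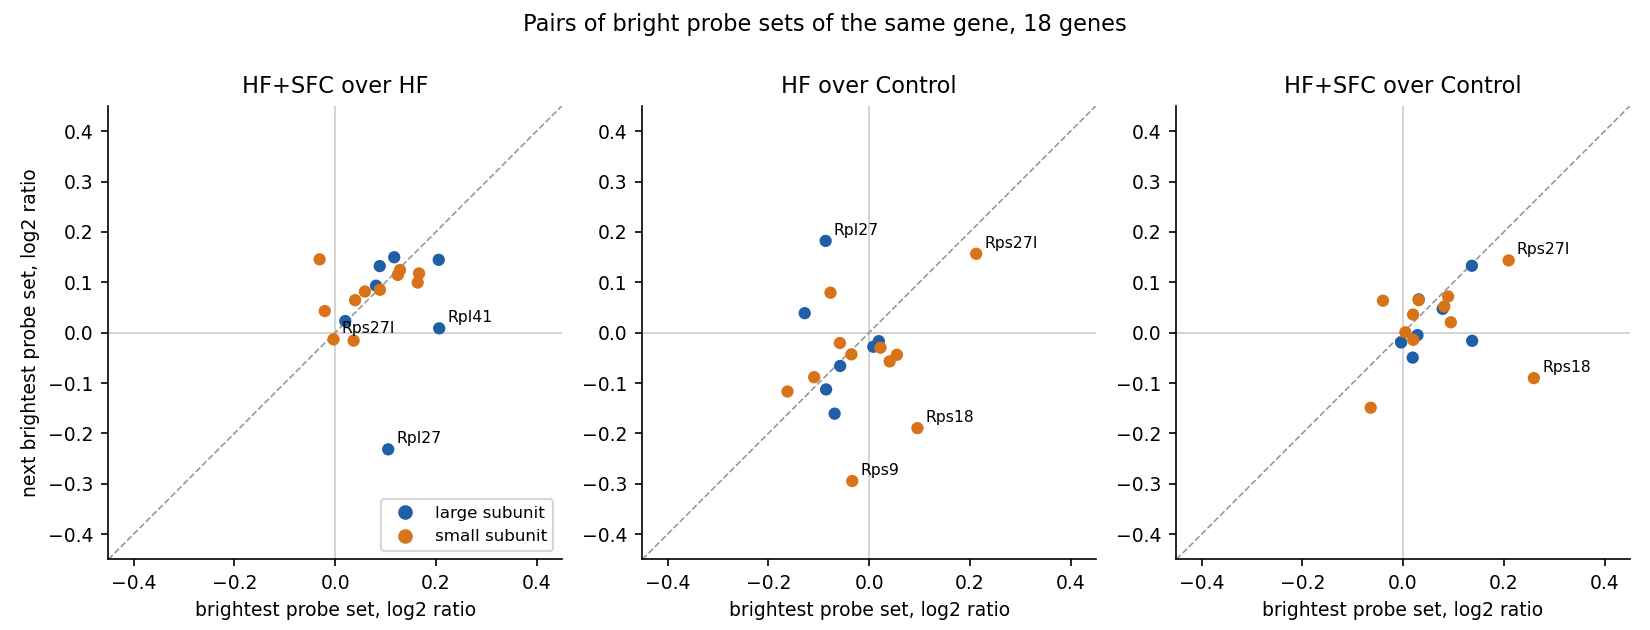
Log2 ratio of the brightest (x axis) against the next brightest probe set (y axis) for the 18 genes in which both are bright, coloured by subunit, with the line of equality dashed. Rpl27, Rps18 and Rps9 each lie far off the line in at least 1 panel, and the brightest and next probe set of Rps27l have the same direction in all 3.

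Of 4 ribosomal proteins and paralogs outside the naming rule, 3 were highest in HF+SFC and lowest in HF, and Rpl7l1 was highest in HF. Rps3a1 and Fau, which both encode small-subunit proteins, had 29768 in HF+SFC, 27795 in HF and 29414 in Control, and 13933 in HF+SFC, 12814 in HF and 13814 in Control. Rpl22l1, the paralog of Rpl22, had 11840 in HF+SFC, 11539 in HF and 11634 in Control, and Rpl7l1, the paralog of Rpl7, 811, 921 and 858. The median of the 4 for HF+SFC over HF was 0.07, which turned to -0.003 after quantile normalization.

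Other parts of the translation machinery were set beside the members, and their counts stand beside 51.4% of all genes positive for HF+SFC over HF and 50.7% for HF over Control. Of 7 genes listed as elongation factors by name or role, 5 had a positive ratio of HF+SFC over HF (median 0.08). For HF over Control 4 were positive (median 0.11), between -0.29 for Eef1d and 0.30 for Eef1e1. Eef1e1 was listed by its name, and the median without it was not computed. Eef1a2, the muscle form of the factor that delivers tRNA, had 25344 in HF+SFC, 22863 in HF and 26154 in Control, the highest ratio of HF+SFC over HF in that list, and Eif5a, which relieves stalled ribosomes, had the lowest, with 21976, 24901 and 20812. Of 11 other mRNAs with a TOP tract, 7 were positive for HF+SFC over HF (median 0.03) and 5 for HF over Control (median -0.08). Their ratios of HF+SFC over HF ran between 0.27 for Tpt1, the translationally controlled tumour protein, and -0.29 for Btf3, a partner of nascent chains. Eif3e, Eif3f, Eif3h and Eif4b are in this list and also among the initiation factors that follow. Of 31 initiation factors, 22 were positive for HF+SFC over HF (median 0.03, between -0.17 for Eif2b5 and 0.17 for Eif3k), and 15 for HF over Control (median -0.01, which turned to 0.01 after quantile normalization). The list of mTORC1 signalling and translational repressors holds activators and inhibitors together, so its median has no direction for the pathway. Its 13 genes had medians of 0.01 and 0.03, which turned to -0.003 and -0.06 with arrays centred on their medians. Tsc1, an inhibitor of mTORC1, had the highest ratio of HF over Control among them, with 1129 in HF+SFC, 1537 in HF and 1108 in Control, and Eif4ebp1, a repressor of cap-dependent initiation, the lowest, with 3393, 3558 and 4734.

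Of 56 ribosome biogenesis genes, which build ribosomes in the nucleolus, 12 had a positive ratio of HF over Control (median -0.13) and 14 of HF+SFC over Control (median -0.11), against 50.7% and 52.4% of all genes, whose medians were 0.01 and 0.02. The list's medians stayed negative under each of the 3 other scalings of all genes, with 7 to 13 and 5 to 15 genes positive. A positive ratio of HF+SFC over HF was seen in 34 of 56 (median 0.05), against 51.4% of all genes. Only 4 of the 56 lie above the 95th percentile. In HF over Control 2 of 56 were past 1.5-fold, both lower, against 29.3% of all genes. That share is over genes of any brightness. Of the 6707 genes above the 75th percentile, only 102 were past 1.5-fold upward and 72 downward. Wdr75, needed for early processing of ribosomal RNA, had the lowest ratio of HF over Control in the list, with 603 in HF+SFC, 551 in HF and 916 in Control, and Polr1e, a subunit of RNA polymerase I, the highest, with 126, 165 and 132. Of 15 RNA polymerase III genes, which serve the 5S ribosomal RNA and tRNAs, 10 were positive for HF+SFC over HF (median 0.12) and 7 for HF over Control (median -0.03). Polr3k, a subunit of that polymerase, had 2697 in HF+SFC, 1003 in HF and 2779 in Control, and Polr3g, another subunit, 86.4, 110 and 77.5.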

How the data were processed

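Total RNA of gastrocnemius muscle was labelled as biotinylated cRNA and hybridised to Affymetrix Mouse Genome 430 arrays, 1 for each group, which took the pooled samples of that group. The authors deposited MAS5 signal intensities on a linear scale. The MAS5 version is not given in the sources used here, and no detection calls were used. Each array had a mean of 500.0 after trimming 2% at each end, with medians of 68.0 in HF+SFC, 67.4 in HF and 63.6 in Control. Per the annotation, 34945 probe sets carry 1 symbol, 932 several, 9160 none and 64 are controls. All value columns were assigned to samples (0 left out). Log2 ratios of the intensities as deposited were computed with Python 3.11.15, numpy 2.4.6 and pandas 2.3.3, and checked on simulated arrays with a known shift. With 1 array per group there is no p-value, and a gene counts as past a threshold at 1.5-fold or 1.2-fold. Members, gene lists and thresholds were chosen with earlier results of these data known. Named genes are the 5 highest and 5 lowest ratios per comparison among members above the median signal, the paralogs, the stalk proteins with Rpsa, Rps6 and Rpl11, members past 1.5-fold, and, in each list, the highest and lowest ratio above the median signal, given in 1 comparison. Rps20, Rps19, Rpl27, Rpl8, Rpl10a and Rps2 were named after their values were seen. Rpl19, Rpl22, Rpl35, Rps16, Rps3a1, Car3, Fabp4, Eef1d, Eef1e1, Eif3e, Eif3f, Eif3h and Eif4b are also named outside these rules. Promoters and gene positions are those of RefSeq, GRCm38.p6. Other probe sets, scalings, offsets and filters were tried as alternatives.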

Additional observations from a re-analysis of the deposited data

How the results depend on the processing

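With 1 array of pooled samples per group no value has a replicate check, and the probe sets of a gene were the only repeat measure. No paired analysis was possible because each group has 1 array. Of 150 recomputed medians, counts, subunit differences and Rpl3l ratios, 110 stayed close to the value given, 30 moved and 10 changed sign. Some of these could not change: centring an array leaves a subunit difference as it is, and Rpl3l has only 1 probe set. Of 534 ratios of the other named genes, 472 stayed within 0.1 on the log2 scale and 62 moved. Part of this was fixed in advance. Each way of centring the arrays left all 66 ratios close, since it shifts all genes alike by less than 0.1. A gene with 1 probe set keeps its value when probe sets are averaged. With the next brightest probe set, 18 ratios moved and 12 stayed. The limit of 0.1 is about as large as the median shifts of the members. A member median counted as moved when it left the 95% interval of the median across genes, and a count when it changed by more than 1.5 times. Except where fewer genes enter, the cause was not tested.

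Quantile normalization gave member medians of 0.028 for HF+SFC over HF and -0.0074 for HF+SFC over Control, with 22 of 46 higher in HF+SFC than in Control. Centring each array on its median gave -0.14 for HF over Control (7 higher in HF) and -0.055 for HF+SFC over Control (7 higher in HF+SFC), and an Rpl3l ratio of -0.0087 for HF+SFC over Control. Centring on the other genes as bright as the members, chosen after seeing the data, gave 0.0084 for HF+SFC over HF and -0.0060 for HF+SFC over Control (22 higher).

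Fewer genes enter with the next brightest probe set (23 genes: 17, 7 and 14 higher for HF+SFC over HF, HF over Control and HF+SFC over Control) and without the _s_at, _x_at and _a_at probe sets (25 genes: 15 higher for HF+SFC over HF and 17 for HF+SFC over Control). Of the 35 members above the 95th percentile, chosen after seeing the data, 8 were higher in HF than in Control.

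The large minus small subunit difference changed sign with the mean of all probe sets (-0.015 for HF+SFC over HF and -0.0023 for HF+SFC over Control), with the next brightest probe set (-0.027, 0.021 and -0.015 in the 3 comparisons) and, for HF over Control, without the _s_at, _x_at and _a_at probe sets (0.15).

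Counts past 1.5-fold were 2, 3 and 2 as reported, in the order HF+SFC over HF, HF over Control and HF+SFC over Control. They were 6, 6 and 5 with the mean of all probe sets, 7, 7 and 7 without the _s_at, _x_at and _a_at probe sets, 0, 0 and 0 among members above the 95th percentile, and 4, 8 and 4 at 1.2-fold. For HF+SFC over HF the next brightest probe set gave 4 and an offset of 50 gave 1, which it also gave for HF over Control. Leaving only probe sets above the median signal gave 1 for HF+SFC over HF and 1 for HF+SFC over Control.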
